A study of Homo sapiens with 12 samples.

Results

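The 9 arrays of sorted cells, 3 each of MS5-NC, NPC-NC and sox10-NC, were set against the 3 arrays of unsorted neuroepithelium, LSB; these are all 12 arrays of the series. MS5-NC cells were made from H9, an established human embryonic stem cell line, on MS5 feeder cells, a mouse stromal line, and were sorted as HNK1+/p75+ on day 35 of differentiation. NPC-NC cells were made from H9 without feeders and sorted with the same HNK1+/p75+ gate on day 18. The sox10-NC cells came from an H9 line with the sox10::GFP reporter, were induced with wnt and were sorted as GFP+ on day 11. LSB cells were H9 cells of day 11, labelled neuroepithelial and not sorted. The results are ordered by changes that went the same way in all 3 sorted groups, and genes that did not are given beside them for their lists. The LSB arrays are the only unsorted ones and the only ones labelled neuroepithelial, so sorting, induction, cell type and, for MS5-NC and NPC-NC, the day cannot be told apart in this contrast. Sox10-NC is the sorted group that shares its day with LSB, and it is also the only one with the reporter. The 3 arrays of a group are labelled biological replicates of 1 cell line, and the p-values measure the spread between them.

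The neural crest arises at the edge of the neural plate. Its cells leave the neuroepithelium by an epithelial to mesenchymal transition, in which epithelial adhesion genes are turned down and matrix genes turned up, and then become peripheral neurons, glia, pigment cells and mesenchyme. Neuroepithelium at the front end of the plate carries eye field transcription factors. Metallothioneins are small zinc- and copper-binding proteins whose genes are switched on by metals through MTF1, while immediate early genes such as FOS are switched on within a short time of many stimuli.

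Each array carried 47322 probes, of which 14616 to 17101 were detected. Median raw signal was 93.4 to 103 on the sorted arrays and 107 to 114 on the LSB arrays, so that every sorted array lay below every LSB array, and the part of this gap in the results was not tested beyond quantile normalisation. Levels below are background-corrected and quantile-normalised log2 bead intensities, on which values near 4.5 are background. The lowest level that passed detection was 5.08 to 5.45, depending on the array. They are compared between arrays within a gene, or as the sum of linear levels over the same list of genes. In such a sum the genes with the brightest probes weigh most. The first principal component, with 40.03% of the variance, ran from MS5-NC and NPC-NC through LSB to sox10-NC, and the second, with 31.0%, put the LSB arrays at -50.01 to -59.48 and the sorted arrays at 1.45 to 41.6. In bulk samples, fewer cells of a type and less RNA per cell cannot be told apart.

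The labels were checked against marker genes first. SOX10, the crest transcription factor after which the reporter is named, had levels of 11.0, 10.5 and 10.7 on the sox10-NC arrays. On the HNK1+/p75+ and LSB arrays it was below background throughout. FOXD3 and TFAP2B, further crest specifiers, were likewise detected in sox10-NC only. NGFR, which encodes the sorted antigen p75, was detected on 0 of 3 MS5-NC arrays, 2 of 3 NPC-NC arrays, 3 of 3 sox10-NC arrays and 1 of 3 LSB arrays. B3GAT1, an enzyme that makes the HNK1 epitope, was detected on every MS5-NC, NPC-NC and LSB array and on no sox10-NC array, with changes against LSB of 0.49 (MS5-NC), 0.69 (NPC-NC) and -1.32 or lower (sox10-NC). PAX6 and LHX2, neuroepithelial transcription factors, followed the same split. TFAP2A, another crest specifier, was detected on 2 MS5-NC, 2 NPC-NC, 3 sox10-NC and 2 LSB arrays, and SNAI2, a further one, on 2, 1, 3 and 3 in that order. Over 21 border and crest specifiers, 18 (MS5-NC), 17 (NPC-NC) and 19 (sox10-NC) were detected on at least 1 array, against 15 in LSB. Their summed linear levels were 5153 to 5844, 4933 to 5639 and 15200 to 16780 in the same 3 sorted groups, against 4085 to 4872 in LSB. The MS5-NC and NPC-NC arrays, labelled neural crest, thus lacked detected SOX10, FOXD3 and TFAP2B, and they are called by their group names here. Summed linear levels of 28 pan-neuronal genes were 41100 to 56380 (MS5-NC), 31150 to 40070 (NPC-NC) and 13200 to 21550 (sox10-NC), against 13260 to 14940 in LSB. The sum over 17 simple epithelial genes was 1840 to 2270 (MS5-NC), 1858 to 2699 (NPC-NC) and 4631 to 5628 (sox10-NC), against 6422 to 6511 in LSB. Pluripotency genes, 10 measured, summed to 4195 to 7492, 5480 to 6803 and 7167 to 7983 in the same 3 sorted groups, against 12320 to 13200 in LSB. POU5F1 and NANOG were not among the genes tested. The part of these other cell types in the changes below was not tested.

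A gene was called when the mean of the 3 sorted groups differed from LSB at least 2-fold at an adjusted p under 0.05, and the call was shared when each sorted group also differed from LSB in that direction at its own adjusted p under 0.05 (limma, Benjamini-Hochberg over 11280 genes). On the mean alone, 1057 genes (9.37%) were higher in the sorted cells and 594 (5.27%) lower. The call was shared by 663 genes (5.88%) that rose and 401 (3.55%) that fell, 1064 genes (9.43%) in all, which is 62.7% and 67.5% of the genes called on the mean. Of the calls that were not shared, 107 of 394 higher and 25 of 193 lower had a sorted group with a change of opposite sign. Among the shared calls, 425 rises and 210 falls were at least 2-fold in each sorted group. All 9 sorted arrays lay above all 3 LSB arrays for 626 of the 663 rises, where 10.6% of all genes tested did so, and below them for 389 of the 401 falls, where 9.96% of all genes did so. Leaving out LSB array 2 lowered the shared counts to 489 rises and 261 falls. Without background correction they were 294 and 140, and among the lists below the neurogenic factors then had 3 rises in place of 6, the p53 targets 1 fall in place of 3, the lysosome genes no rise in place of 2, and the CNS neuroepithelium list no call in place of 1 rise and 1 fall, while several other lists lost 1 or 2 calls.

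The 3 sorted groups differed from one another at 3090 genes (27.4%; limma's moderated F, adjusted p under 0.05). Among the shared calls the share was 23.1% of the rises and 25.7% of the falls, which is near that background. The median rise was 1.46 (MS5-NC), 1.31 (NPC-NC) and 1.38 (sox10-NC) (log2, each against LSB), and the median fall -1.38, -1.21 and -1.33. These 3 differences share the LSB arrays. The median over all genes tested was 0.0045.

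The metallothioneins fell together. Of 7 measured genes, 6 had a shared fall (85.7%, where 3.55% of all genes did) and none a shared rise. The list's median change was -3.89 on the log2 scale, or -3.32 with genes below background set at the detection floor, the lowest level that passes detection. The genes lie side by side on chromosome 16, from 56589528 (MT3) to 56684196 (MT1X) in GRCh38.p14. Promoter windows of 3 of the genes that fell are shown because they carry the core of the metal response element, the MTF1 binding motif; each runs from 250 bases before to 50 bases after the gene start (RefSeq, GRCh38.p14, plus strand), with matches to TGCACNC or TGCGCNC on either strand in capitals, overlapping matches included.
MT2A, chr16:56608334-56608633: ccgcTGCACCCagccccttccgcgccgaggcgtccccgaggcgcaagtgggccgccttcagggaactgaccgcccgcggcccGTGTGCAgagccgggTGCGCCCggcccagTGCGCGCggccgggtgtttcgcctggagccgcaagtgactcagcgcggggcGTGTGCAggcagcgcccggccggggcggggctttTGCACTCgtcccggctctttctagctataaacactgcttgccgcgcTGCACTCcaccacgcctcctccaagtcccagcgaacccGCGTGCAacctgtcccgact
MT1H, chr16:56669564-56669863: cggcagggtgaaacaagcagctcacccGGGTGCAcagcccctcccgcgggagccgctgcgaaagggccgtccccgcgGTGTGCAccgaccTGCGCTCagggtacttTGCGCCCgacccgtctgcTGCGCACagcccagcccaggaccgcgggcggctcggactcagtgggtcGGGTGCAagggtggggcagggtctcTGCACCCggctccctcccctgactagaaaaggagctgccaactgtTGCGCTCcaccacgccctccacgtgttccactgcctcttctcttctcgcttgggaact
MT1X, chr16:56682220-56682519: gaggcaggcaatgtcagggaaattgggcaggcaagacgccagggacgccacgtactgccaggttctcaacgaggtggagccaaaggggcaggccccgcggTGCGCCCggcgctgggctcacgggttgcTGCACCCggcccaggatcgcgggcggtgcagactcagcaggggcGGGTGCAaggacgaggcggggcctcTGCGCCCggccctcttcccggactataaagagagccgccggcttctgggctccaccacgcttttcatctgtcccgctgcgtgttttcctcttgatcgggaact
The windows hold 8, 8 and 4 matches. Of all 27305 promoter windows of this length, 29.3% hold at least 1 and 2.27% at least 3. Among genes tested with a window, 39.2% hold at least 1. The share was 37.8% of the shared falls and 41.9% of the shared rises, so the motif was no more frequent among falls. MT1E, MT1F, MT1G and MT3 had no entry in the promoter table. A match to these letters is a description and not a measured binding site.

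MT1E, a zinc-binding isoform, read 5.26, 5.94 and 4.51 (MS5-NC), 5.35, 5.12 and 4.86 (NPC-NC) and 6.33, 6.34 and 4.91 (sox10-NC), against 9.69, 9.80 and 9.23 in LSB. All 9 sorted arrays lay more than 2 log2 units below the lowest LSB array. Its mean change was -4.17 ± 0.30 (SE, adjusted p = 2.13e-08), 18.0-fold lower in sorted cells. MT1E was detected on 2 of 3 MS5-NC, 1 of 3 NPC-NC and 2 of 3 sox10-NC arrays, so this fold rests in part on levels below detection. MT1F had a lowest, median and highest of 4.81, 5.85 and 6.61 over the sorted arrays, against 9.77, 10.08 and 9.91 in LSB (17.1-fold lower, adjusted p = 2.36e-09). Of the sox10-NC arrays, 1 of 3 detected MT1F. MT1H was below background on all 9 sorted arrays and had 8.40, 8.71 and 8.52 in LSB, a fall of at least 9.96-fold.

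MT2A, the metallothionein expressed in most tissues, stayed detected on every sorted array. It read 6.21, 7.10 and 6.40 (MS5-NC), 6.58, 6.59 and 6.83 (NPC-NC) and 7.74, 7.83 and 6.43 (sox10-NC), against 9.03, 8.81 and 9.09 in LSB, and its change was -2.12 ± 0.26 (adjusted p = 7.48e-06, 4.35-fold lower). MT1G was below background in MS5-NC and NPC-NC and detected on 1 sox10-NC array, a fall of about 12.1-fold (adjusted p = 1.24e-08). MT1X differed in size between the sorted groups (adjusted p = 7.97e-05), with changes of -3.89 (MS5-NC), -3.54 (NPC-NC) and -1.34 (sox10-NC). Its sox10-NC arrays read 8.86, 8.75 and 6.98, and without the last of these, array 3, its mean change was -2.72 and the shared call was lost, as it was without LSB array 2 (-2.79). MT3, a brain form of the family, was below background in sox10-NC and LSB and was detected on 1 MS5-NC and 2 NPC-NC arrays, and it was not a shared call. The 6 genes that fell are near-identical copies, so the probe of 1 can bind RNA of another, and how the fall divides among them is uncertain. Leaving out 1 array at a time left 4 to 6 of the 6 calls, the fewest without LSB array 2; MT1H then no longer met the requirement of detection on 3 arrays.

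**Figure D1:**
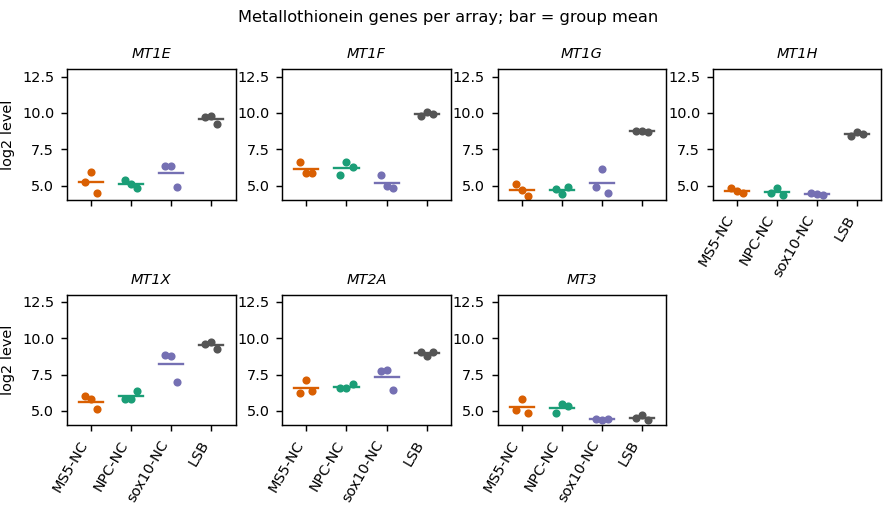
Log2 level of the 7 measured metallothionein genes on each array (points) with the group mean (bar), MS5-NC, NPC-NC and sox10-NC left of LSB. For MT1E, MT1F, MT1G, MT1H, MT1X and MT2A every sorted array lies below every LSB array, and MT3 was detected on 1 MS5-NC and 2 NPC-NC arrays only.

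Genes of simple epithelia fell next most often. Of 17 measured, 10 had a shared fall (58.8%) and none a shared rise, with a median change of -1.92, or -1.47 with bounds. The 10 included keratins, adhesion proteins and claudins. KRT8, a keratin of simple epithelia, had a lowest, median and highest of 6.58, 7.13 and 8.09 over the sorted arrays, against 9.83, 9.36 and 10.20 in LSB. Its 3 group changes differed by less than the spread between arrays (MS5-NC -2.60, NPC-NC -2.49, sox10-NC -2.54; F adjusted p = 0.974). KRT19, another simple keratin, fell 6.57-fold (adjusted p = 6.31e-07). EPCAM, an epithelial cell adhesion molecule, had 5.48, 6.93 and 7.29 (lowest, median, highest) in sorted cells, against 9.13, 9.23 and 9.04 in LSB, a change of -2.47 ± 0.26. CDH1, the cadherin of epithelia, was detected on 1 MS5-NC array, no NPC-NC array and 2 sox10-NC arrays, and had 7.72, 8.05 and 7.76 in LSB, a fall of about 5.68-fold (adjusted p = 6.71e-06). ANXA3, a further annexin, fell about 6.26-fold, and CLDN7, a tight junction claudin below background on all 9 sorted arrays, at least 2.76-fold. PERP, a desmosomal protein, fell by 2.08 on the log2 scale with changes of -2.18, -2.02 and -2.02 in the 3 groups. CLDN10 differed in size among the groups, with -3.32 in sox10-NC beside -1.26 in MS5-NC and -1.18 in NPC-NC. CLDN6 fell at least 1.79-fold, a bound under the 2-fold limit. Leaving out any 1 LSB array left 8 calls, over 15 measured genes.

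Annexins and S100 proteins, which bind calcium, had 4 shared falls among 14 measured (28.6%, median -0.52). Group medians were -0.64 (MS5-NC), -0.76 (NPC-NC) and -0.15 (sox10-NC). Summed levels of the 14 genes were 4522 to 4655, 3576 to 5362 and 8804 to 10520 in that order, against 6988 to 7932 in LSB. The sum thus lay below LSB in MS5-NC and NPC-NC and above it in sox10-NC. ANXA1, known for limiting inflammation, had 6.15, 6.63 and 7.66 (lowest, median, highest) in sorted cells, against 10.10, 10.27 and 10.01 in LSB. It fell 10.4-fold (-3.38 ± 0.26, adjusted p = 3.6e-08), and all sorted arrays lay far below LSB. S100A16 was detected on 1 of 9 sorted arrays and fell about 3.61-fold. S100A13 fell 2.14-fold, the smallest of the 4 falls. Leaving out single arrays left 3 or 4 of the calls, the fewest without any 1 LSB array, MS5-NC array 1 or 3, or NPC-NC array 3. Wider junction and polarity genes had 1 shared fall among 10 (PALS1, a polarity scaffold, -1.07), and integrins 1 among 9 (ITGB5, a beta subunit, -1.61); both were lost without LSB array 2 or 3.

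Contractile genes had 4 shared falls among 14 measured (28.6%) and no rise, with a median of -0.61. TAGLN, an actin-binding protein of smooth muscle, had 7.82, 8.27 and 9.24 (lowest, median, highest) in sorted cells, against 11.07, 10.51 and 10.57 in LSB (5.09-fold lower, adjusted p = 1.2e-07). TPM1, a tropomyosin, fell by 2.31 on the log2 scale and differed among the groups, with changes of -2.41, -1.57 and -2.96 in MS5-NC, NPC-NC and sox10-NC. ACTA2, smooth muscle actin, fell 3.51-fold, and MYL9, a myosin light chain, fell 3.6-fold. All 4 calls were kept whichever array was left out. CAVIN3, a caveolar coat protein, fell by a like amount, 3.46-fold (adjusted p = 3.4e-05).

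Eye field and anterior neural plate factors had 4 shared falls among 12 measured (33.3%), with a median of -1.36, or -1.09 with bounds. The groups' own medians were -0.15 (MS5-NC), -0.18 (NPC-NC) and -2.92 (sox10-NC), so the list's median is set largely by sox10-NC. Summed levels of the 12 genes were 7904 to 11000 (MS5-NC) and 9151 to 9233 (NPC-NC), both above LSB, and 1056 to 1407 (sox10-NC), against 5779 to 6889 in LSB. RAX, the retinal homeobox factor, had 4.57, 4.97 and 5.46 (lowest, median, highest) in sorted cells, against 8.32, 7.16 and 7.57 in LSB, and fell about 5.69-fold. SIX6, another retinal homeobox factor, fell about 6.69-fold (adjusted p = 1.77e-07), and HESX1, an early forebrain repressor, was below background on all 9 sorted arrays and fell at least 4.37-fold. FEZF1, a forebrain zinc finger factor, fell less in MS5-NC (-1.32) and NPC-NC (-1.11) than in sox10-NC, where it was below background (-2.13 or lower; F adjusted p = 5.2e-05), a fall of at least 2.87-fold on the mean. Leaving out 1 array left 3 to 5 calls, the fewest without any 1 LSB array, when 11 genes were measured. PAX6, OTX2 and SOX2, which mark neuroepithelium at large, were not shared calls: PAX6 changed by -0.01 and -0.49 in MS5-NC and NPC-NC against -3.65 or lower in sox10-NC, where it was below background, OTX2 by 0.29, 0.14 and -3.24, and SOX2 by -0.31, -0.66 and -2.85. The list of CNS neuroepithelium and radial glia had 1 shared rise (GLI3, a hedgehog pathway factor, 2.24-fold) and 1 shared fall (HOPX, at least 1.31-fold) among 18 measured. Both counts were 0 in some omissions of 1 array, among them that of LSB array 1. FGF8, a signal of the anterior neural ridge, had 4.27, 4.59 and 7.86 (lowest, median, highest) in sorted cells, against 8.79, 9.02 and 9.05 in LSB, a fall of at least 9.56-fold. It was the only shared call among 17 FGF and MAPK feedback genes measured.

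Single genes fell as far. PAMR1, a secreted protein with a peptidase-like domain, had the largest shared fall of all genes tested: 4.40, 4.61 and 6.15 (lowest, median, highest) in sorted cells, against 9.60, 9.15 and 9.54 in LSB, about 18.8-fold (adjusted p = 2.36e-09). The level of IGFBP3, a carrier of insulin-like growth factors, was 5.12, 5.87 and 7.12 in sorted cells, against 9.74, 9.46 and 10.32 in LSB, 13.6-fold lower (adjusted p = 4.26e-09). Of the IGF genes, 14 measured, IGFBP3 and IGFBP6 had a shared fall, that of IGFBP6 at least 1.37-fold. IGF2R, the receptor that clears IGF2, rose 2.48-fold (1.31 on the log2 scale, or 0.99 and no longer called without LSB array 2). ERP27, a protein of the endoplasmic reticulum, the potassium channels KCNK12 and KCNJ13 and the forkhead factor FOXA3 were below background on all 9 sorted arrays and fell at least 5.80, 5.78, 4.31 and 3.45-fold. CTSV, a cathepsin, fell 5.86-fold and BBS9, a ciliary complex subunit, 5.61-fold. L1TD1, an RNA-binding protein of pluripotent cells, was the only shared fall among 10 pluripotency genes, with changes of -3.71, -2.53 and -1.27 in MS5-NC, NPC-NC and sox10-NC; the call was lost when any 1 LSB array or sox10-NC array 2 or 3 was left out, with mean changes of -2.41 to -2.53. SNAR-A1, a small non-coding RNA with near-identical copies, read 6.6-fold lower, and the value cannot be assigned to 1 copy. ARHGAP15, a Rac GTPase-activating protein, fell 4.72-fold.

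p53 targets had 3 shared falls among 12 measured (25.0%, median -0.45). Group medians were -0.14 (MS5-NC), -0.54 (NPC-NC) and -0.83 (sox10-NC). The 12 genes summed to 11180 to 14200, 7945 to 9445 and 5888 to 8106 in that order, against 8071 to 9480 in LSB. The sum in MS5-NC thus lay above LSB. SESN1, a stress-response protein, fell 2.69-fold, TP53I3 2.31-fold and RRM2B, a ribonucleotide reductase subunit, 2.28-fold. The call of SESN1 stood whichever array was left out; the list's count dropped to 1 without LSB array 2.

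A part of the immediate early genes rose. Of 14 measured, 5 had a shared rise (35.7%, against 5.88% of all genes), none a shared fall, and the median was 0.67. FOS, which pairs with JUN in the AP-1 factor, read 10.46, 9.35 and 9.51 (MS5-NC), 9.47, 8.60 and 9.12 (NPC-NC) and 8.87, 10.83 and 9.16 (sox10-NC), against 5.85, 5.69 and 5.35 in LSB. The arrays did not overlap, and FOS was 14.5-fold higher (3.85 ± 0.33, adjusted p = 1.47e-07), with changes of 4.14, 3.43 and 3.99 in the 3 groups (F adjusted p = 0.36). EGR1, a zinc finger factor, had 8.46, 9.23 and 11.15 (lowest, median, highest) in sorted cells, against 6.57, 6.41 and 6.62 in LSB, 7.99-fold higher, and rose more in sox10-NC (3.94) than in MS5-NC (2.67) or NPC-NC (2.39; F adjusted p = 0.0133). KLF6, a Krüppel-like factor, rose 4.04-fold, and JUN 3.67-fold (adjusted p = 0.000168). DUSP1, a phosphatase that switches off MAP kinases, rose 2.65-fold (adjusted p = 0.000264). The other 9 genes were not shared calls: ZFP36, an mRNA decay factor, changed by 0.91 with no overlap of arrays, CCN1 by 0.73, FOSB by 0.62, CCN2 by 0.55, ATF3 by 0.24, IER2 by 0.19, IER3 by -0.32 and MYC by -0.48, and KLF4 was below background in NPC-NC and sox10-NC. IER3 changed by 0.18 (MS5-NC), 0.22 (NPC-NC) and -1.36 (sox10-NC) (F adjusted p = 0.00126). Without sox10-NC array 3 the count was 4, since JUN was then called on the mean (1.79) but not shared.

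Promoter windows of EGR1 and DUSP1 (RefSeq, GRCh38.p14) are shown because they hold motifs that growth factor and cAMP signals act on. In EGR1 the capitals are CArG boxes, the binding motif of SRF, and in DUSP1 the cAMP response element TGACGTCA.
EGR1, chr5:138465229-138465528, plus strand: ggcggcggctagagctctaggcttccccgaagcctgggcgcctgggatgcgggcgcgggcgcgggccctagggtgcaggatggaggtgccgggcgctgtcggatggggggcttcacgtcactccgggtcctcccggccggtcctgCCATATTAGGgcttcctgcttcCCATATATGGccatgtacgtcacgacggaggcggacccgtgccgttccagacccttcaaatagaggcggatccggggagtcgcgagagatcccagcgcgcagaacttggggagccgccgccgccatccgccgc
DUSP1, chr5:172771146-172771445, minus strand: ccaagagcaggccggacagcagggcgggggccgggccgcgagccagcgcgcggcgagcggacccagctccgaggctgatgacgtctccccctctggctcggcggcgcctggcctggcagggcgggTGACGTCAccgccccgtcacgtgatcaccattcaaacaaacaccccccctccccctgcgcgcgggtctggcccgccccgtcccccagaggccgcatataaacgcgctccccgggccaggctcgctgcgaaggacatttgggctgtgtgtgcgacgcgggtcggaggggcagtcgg
EGR1 holds 2 CArG boxes, DUSP1 1 cAMP response element. Of all 27305 windows, 1.29% hold a CArG box, 0.033% 2 or more, and 1.98% a cAMP response element. Among genes tested with a window, 1.1% hold a CArG box and 3.6% a cAMP response element. Among the shared rises the shares were 1.7% and 3.1%. The FOS window holds no exact match to either motif. Inexact forms of the motifs and sequence outside the window were not searched.

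A part of the neuronal genes rose. Of 28 pan-neuronal genes measured, 9 had a shared rise (32.1%) and none a shared fall, with a median of 1.53 and group medians of 2.25 (MS5-NC), 2.04 (NPC-NC) and 0.59 (sox10-NC). DCX, a microtubule protein of migrating neurons, had 8.64, 10.64 and 11.62 (lowest, median, highest) in sorted cells, against 7.30, 7.75 and 8.21 in LSB, 6.35-fold higher (adjusted p = 1.93e-07). TUBB3, neuronal tubulin, was 4.22-fold higher, and NCAM1, the neural cell adhesion molecule, 6.35-fold. ELAVL3, a neuronal RNA-binding protein, was 8.24-fold higher and CNTN2, an axonal adhesion protein, 7.73-fold. Of these, 4 had their highest mean in MS5-NC and their lowest in sox10-NC: DCX changed by 3.56, 2.99 and 1.45, ELAVL3 by 3.92, 3.39 and 1.82, CNTN2 by 4.36, 2.88 and 1.62 and TUBB3 by 2.50, 2.30 and 1.43, each with an F adjusted p of 0.0076 or less. SNAP25, a synaptic fusion protein, was 4.79-fold higher, GAP43, a growth cone protein, 4.45-fold and NEFM, a neurofilament, 4.26-fold. SYT4, a synaptotagmin, rose 3.43-fold and was lost in 7 of the 12 array omissions, while the list's count ran from 8 to 14. CLIP3, a protein of neuronal trafficking, was 7.45-fold higher and KIF21B, a neuronal kinesin below background in LSB, at least 7.50-fold. RELN, an extracellular signal for migrating neurons, had the largest shared rise of all genes tested, with 8.16, 9.28 and 9.88 (lowest, median, highest) in sorted cells, against 4.46, 5.56 and 5.06 in LSB, 16.5-fold (adjusted p = 3.52e-09).

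Of the neurogenic transcription factors, 6 of 18 measured rose (33.3%; median 1.64, or 1.17 with bounds). The groups' own medians were 2.01 (MS5-NC), 1.66 (NPC-NC) and 0.36 (sox10-NC), the value of sox10-NC lying nearest 0. INSM1, a zinc finger factor of neuronal progenitors leaving the cell cycle, had 7.53, 9.25 and 9.79 (lowest, median, highest) in sorted cells, against 5.08, 5.43 and 4.73 in LSB, 15.3-fold higher, with changes of 4.34, 3.95 and 3.51 in the 3 groups (F adjusted p = 0.227). NEUROG1, a proneural factor of sensory neurons, was below background in LSB and rose at least 3.02-fold, with changes of at least 0.51 (MS5-NC), 1.12 (NPC-NC) and 3.15 (sox10-NC) (F adjusted p = 1.5e-06). ONECUT2 rose 3.8-fold. The calls of EBF1, NHLH1 and EBF2 were lost without sox10-NC array 2 or 3, when 3 of the 6 were left. ISL1, a factor of sensory and motor neurons, had 6.47, 8.25 and 10.55 in sorted cells, against 4.81, 5.39 and 4.67 in LSB, 11.4-fold higher; it and NEUROG1 were the 2 shared rises among 7 sensory neuron genes. INSM1 was the 1 shared rise among 3 autonomic and enteric genes measured.

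The matrix and mesenchyme list had 8 shared rises among 25 measured (32.0%; median 1.06, or 0.96 with bounds) and no fall. COL1A1, a fibrillar collagen chain, had 7.53, 8.28 and 8.79 (lowest, median, highest) in sorted cells, against 5.24, 5.33 and 5.44 in LSB, 7.06-fold higher (2.82 ± 0.23, adjusted p = 1.05e-07). COL6A1, a beaded filament collagen, was 7.58-fold higher, with changes of 3.17, 2.86 and 2.74 in the 3 groups. BGN, a small proteoglycan, was 9.72-fold higher (adjusted p = 1.42e-05) and had the widest spread of these, 7.83 to 10.90 over the sorted arrays. COL1A2 rose 3.78-fold, COL5A1 4.02-fold, VCAN, a large matrix proteoglycan, 2.62-fold, COL4A2 2.40-fold and COL5A2 2.08-fold. Without sox10-NC array 3, 6 of the 8 were left. CDH6, a type II cadherin, rose in all 3 groups but far more in sox10-NC (5.23) than in MS5-NC (1.67) or NPC-NC (1.60; F adjusted p = 7.9e-10). VIM, the intermediate filament of mesenchyme and neural progenitors, changed by 0.91, under the 2-fold limit, with no overlap of arrays.

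Notch pathway genes had 5 shared rises among 17 measured (29.4%, median 0.99, or 0.62 with bounds). Group medians were 0.72 (MS5-NC), 0.77 (NPC-NC) and 0.79 (sox10-NC). The 17 genes summed to 13420 to 17800 (MS5-NC), 16440 to 17350 (NPC-NC) and 5441 to 9217 (sox10-NC). The LSB sums, 8261 to 10290, lay below those of MS5-NC and NPC-NC, while the sox10-NC sums reached below LSB. NOTCH1 was 5.33-fold and NOTCH3 4.61-fold higher, the receptors that turn neighbour contact into transcription, and HES6, an inhibitor of the HES1 repressor, had 10.55, 11.07 and 11.73 (lowest, median, highest) in sorted cells, against 8.55, 8.81 and 8.98 in LSB (5.14-fold, adjusted p = 5.39e-07). HES6 changed by 2.15, 2.43 and 2.50 in the 3 groups and the test found no difference among them (F adjusted p = 0.593). NOTCH2 and HEY1, a Notch target, rose 2.14 and 2.58-fold; each was lost in several array omissions, which left 4 or more of the 5.

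Wnt targets and feedback genes had 5 shared rises among 14 measured (35.7%; median 1.27, or 1.08 with bounds), with group medians of 0.73 (MS5-NC), 0.59 (NPC-NC) and 2.34 (sox10-NC). TNFRSF19, a TNF receptor family member, had 8.14, 8.98 and 11.13 (lowest, median, highest) in sorted cells, against 6.20, 6.78 and 6.86 in LSB, 6.98-fold higher (adjusted p = 1.36e-07). All of the 5 but NKD2 had their highest mean in the wnt-induced group. TNFRSF19 changed by 4.45 in sox10-NC, against 2.01 in MS5-NC and 1.95 in NPC-NC (F adjusted p = 2.39e-06). LEF1, the factor that binds beta-catenin, changed by 2.94, 1.38 and 1.23 in the same order, and AXIN2, the feedback inhibitor, by 2.70, 0.81 and 0.79. NKD2 and APCDD1, both inhibitors, rose 2.36-fold and at least 3.40-fold, and the test found no difference among the groups for either. NKD2 changed by 1.26 in sox10-NC, against 1.13 in MS5-NC and 1.33 in NPC-NC (F adjusted p = 0.879). APCDD1 changed by at least 2.49 in sox10-NC, against 1.16 in MS5-NC and 1.64 in NPC-NC (F adjusted p = 0.0551). Without LSB array 1 the calls of AXIN2 and NKD2 were lost and 3 of the 5 were left; APCDD1 was lost without MS5-NC array 2 or 3.

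Axon guidance genes had 5 shared rises among 24 measured (20.8%; median 0.90). NRP1, a semaphorin and VEGF co-receptor, was below background in LSB and rose at least 4.22-fold, with changes of at least 2.21 (MS5-NC), 2.05 (NPC-NC) and 1.97 (sox10-NC). PLXNA1, a plexin, had 7.15, 8.40 and 8.65 (lowest, median, highest) in sorted cells, against 6.27, 5.80 and 6.71 in LSB, 4.14-fold higher. EPHB1, an ephrin receptor, rose 3.09-fold, PLXNB1 2.7-fold and EFNB2, an ephrin ligand, 2.66-fold. Omitting sox10-NC array 2 or LSB array 2 cost PLXNB1 its call, leaving 4.

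Crest surface and migration genes had 5 shared rises (31.2%) and 1 shared fall (6.25%) among 16 measured: NRP1, CDH6, GFRA1, GFRA2 and EDNRB rose and CDH11, a further cadherin, fell by 1.93 on the log2 scale. EDNRB, the endothelin receptor of crest and pigment cells, was 4.51-fold higher, and more so in sox10-NC (3.34) than in MS5-NC (1.66) or NPC-NC (1.52). GFRA1 and GFRA2, receptors of the GDNF family, rose 5.25 and 3.01-fold, with GFRA1 at 4.21 in sox10-NC and 1.73 and 1.24 in the others; without LSB array 1 or NPC-NC array 1 both calls were lost and 3 rises were left, and CDH11 was lost without NPC-NC array 2 or 3 or LSB array 2 (-1.90 without that LSB array). Neural plate border and crest specifiers had no shared call in either direction among 21 measured (median 0.72, with 0.17 for MS5-NC, 0.13 for NPC-NC and 1.71 for sox10-NC), and TFAP2A, one of them, changed by -0.33 and -0.18 in MS5-NC and NPC-NC against 4.04 in sox10-NC (F adjusted p = 3.05e-08). The Schwann cell list had 2 shared rises (NCAM1 and GAP43) and 1 shared fall (POU3F1, about 2.02-fold) among 7, and melanocyte genes 1 rise (EDNRB) among 5. NCAM1 and GAP43 are also on the pan-neuronal list. Medians of the Schwann cell list were 0.31 (MS5-NC), 0.23 (NPC-NC) and 1.19 (sox10-NC). Its sums were 7904 to 9223, 8274 to 10250 and 793.8 to 958.8 in that order, against 5449 to 8310 in LSB. The sum thus lay far below LSB in sox10-NC only.

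For some large rises the test found no difference among the 3 groups. ZFHX3, a large homeodomain factor, had 8.97, 9.30 and 9.56 (lowest, median, highest) in sorted cells, against 5.42, 5.44 and 5.86 in LSB, 13.4-fold higher (adjusted p = 4.44e-10), with changes of 3.73, 3.66 and 3.84. POLR2A, the largest subunit of RNA polymerase II, was 6.56-fold higher, with changes of 2.74, 2.65 and 2.75 (F adjusted p = 0.945), and ZMIZ1, a transcriptional coregulator, 7.51-fold. RNU1-3, a U1 spliceosomal RNA with near-identical copies, was 7.13-fold higher, which cannot be assigned to 1 copy. ALDOC, a brain aldolase, rose 4.36-fold with changes of 2.19, 2.11 and 2.07; with ALDOA (2.72-fold) it made 2 shared rises among 20 hypoxia and glycolysis genes, and ANKRD37 was the 1 shared fall (-1.07). ALDOA was lost without NPC-NC array 1 or LSB array 1 or 2, and ANKRD37 in 9 of the 12 omissions.

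Further large rises lay outside the lists. ARHGAP33, a GTPase-activating protein, was 7.19-fold higher, less so in sox10-NC (2.37) than in MS5-NC (3.11) or NPC-NC (3.06; F adjusted p = 0.017). Genes below background in LSB were MEGF10, an engulfment receptor (at least 6.68-fold), BHLHE40, a transcriptional repressor (4.69-fold), ZNF467 (4.66-fold) and ATP1B2, a sodium pump subunit (4.24-fold). MEGF10 rose most in sox10-NC (at least 3.91, against 2.26 in MS5-NC and 2.05 in NPC-NC; F adjusted p = 0.000259) and ZNF467 most in MS5-NC (at least 3.11, with 2.11 in NPC-NC and 1.44 in sox10-NC; F adjusted p = 0.0056).

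**Figure D2:**
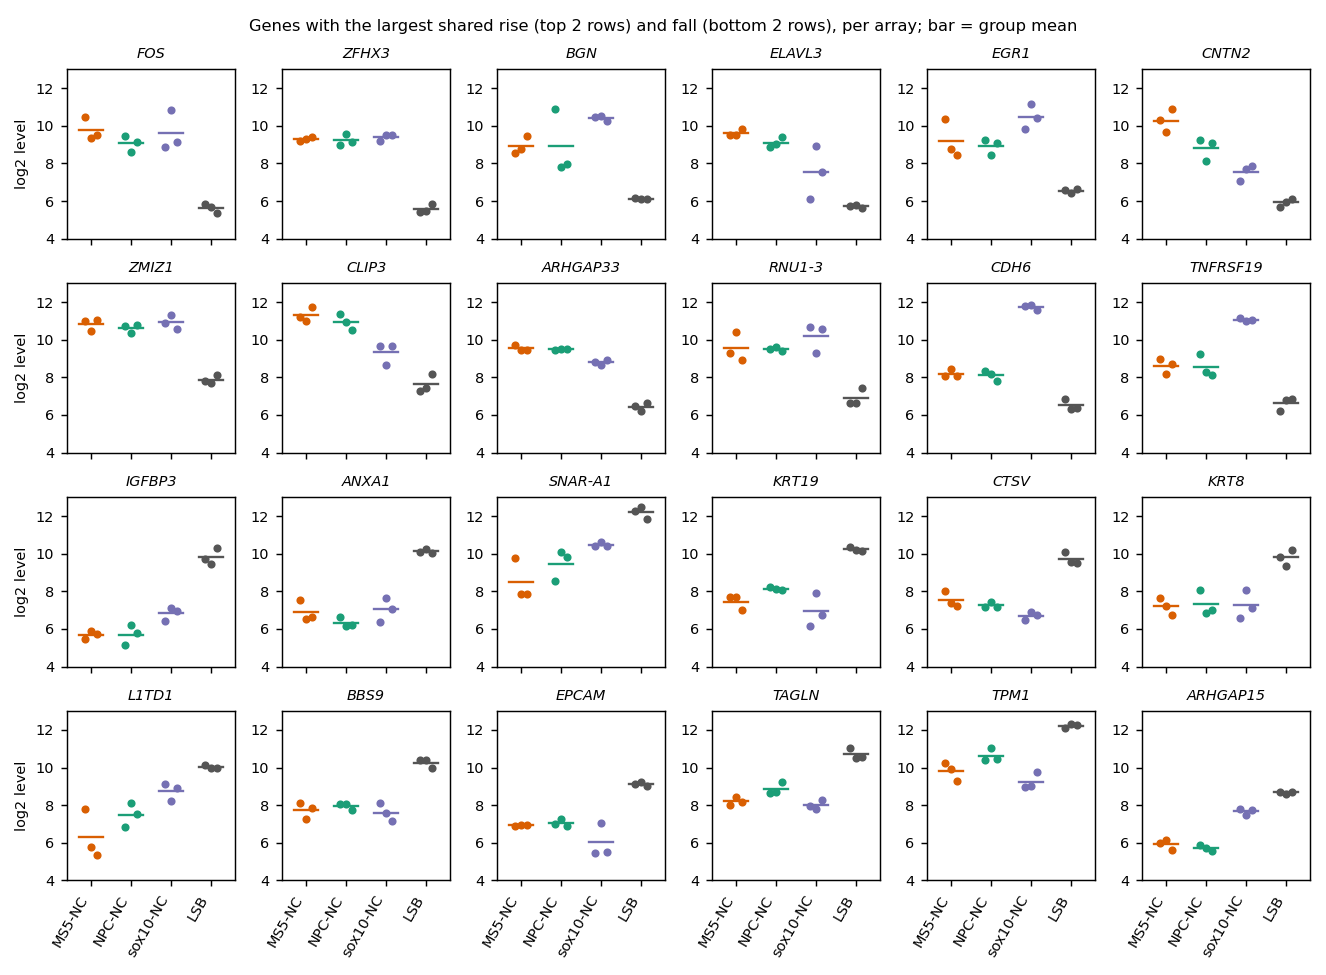
Log2 level per array (points) with the group mean (bar) for the 12 genes of largest shared rise (top) and 12 of largest shared fall (bottom) among genes detected on all 12 arrays, MS5-NC, NPC-NC and sox10-NC left of LSB. The LSB arrays lie below every sorted array in the upper panels and above them in the lower.

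**Figure D3:**
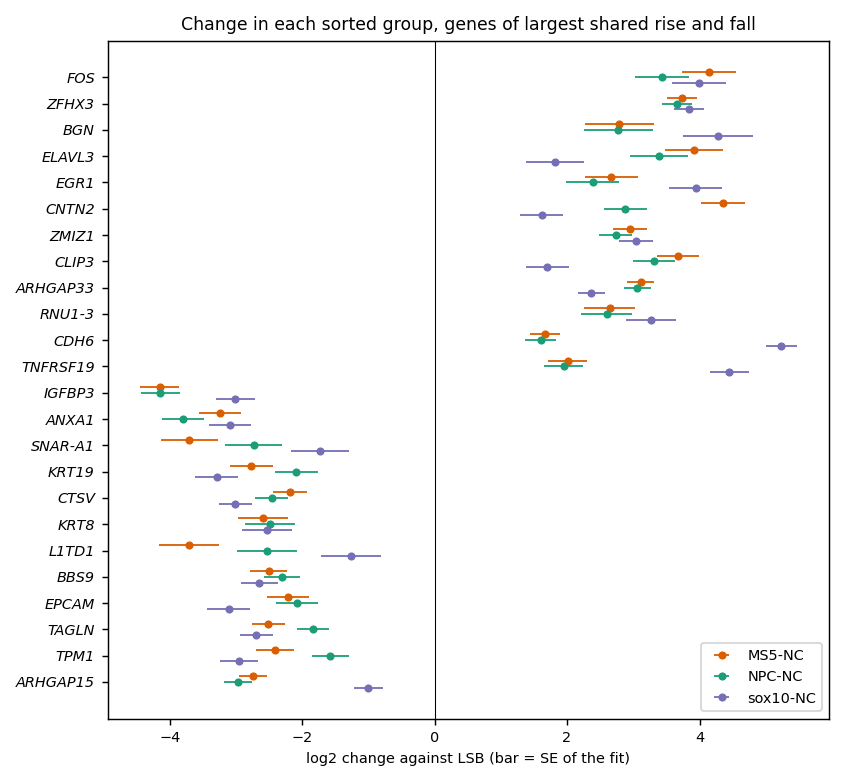
Change against LSB on the log2 scale for each sorted group, with the SE of the fit, for the same 24 genes. ZFHX3, ZMIZ1, KRT8 and BBS9 show 3 overlapping points, while CDH6 and TNFRSF19 lie farther out in sox10-NC and CNTN2 in MS5-NC.

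**Figure D4:**
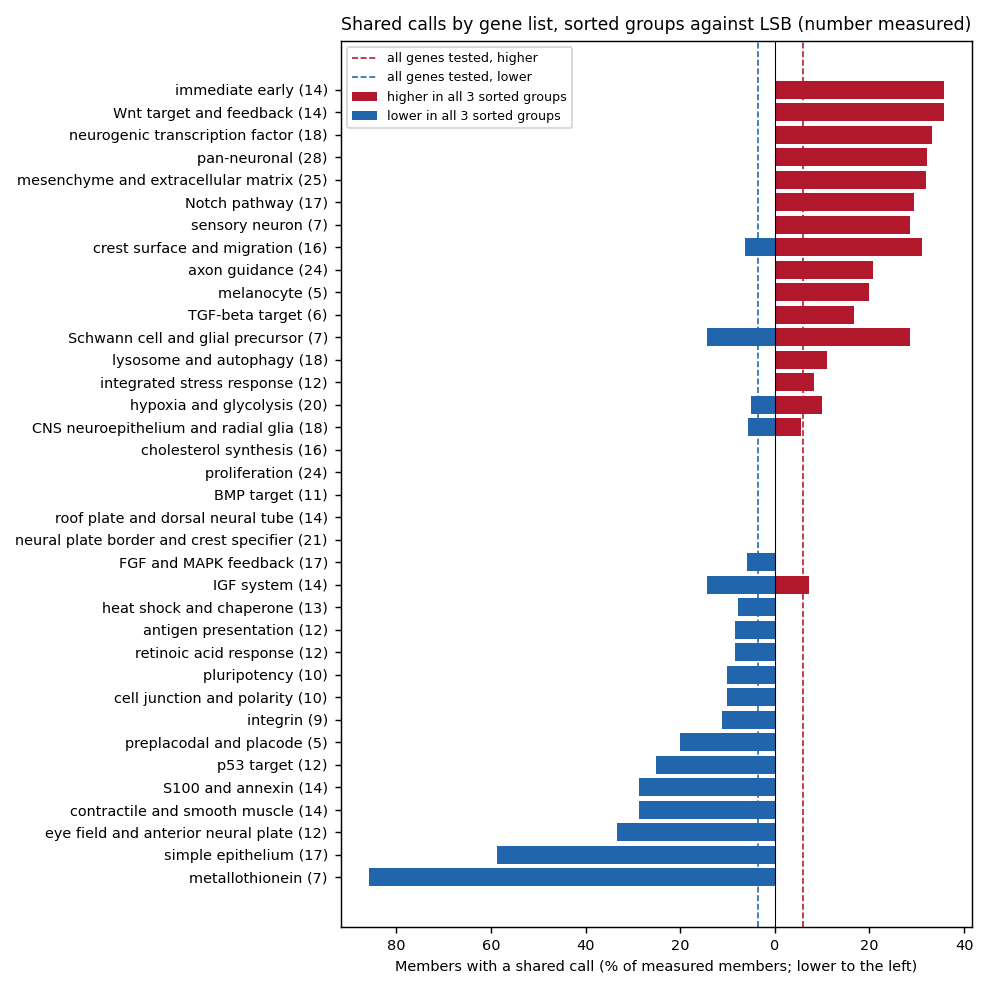
Share of the measured members of each list with a shared rise (to the right) or fall (to the left), for lists with at least 5 measured members, whose number is in brackets, with dashed lines at the share of all genes tested (5.88% and 3.55%). Metallothioneins reach 85.7% lower and simple epithelium 58.8% lower; immediate early and Wnt genes reach 35.7% higher.

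Other lists held few shared calls or none. Proliferation genes had none among 24 measured (median -0.32), nor had cholesterol synthesis among 16, roof plate among 14 or BMP targets among 11. Lysosome and autophagy genes had 2 shared rises among 18 (NPC1 and GRN, 2.10-fold each), and both calls were lost without LSB array 1 or 2. Heat shock genes had 1 shared fall among 13 (HSPE1, -1.04), integrated stress response genes 1 shared rise among 12 (PPP1R15A, 1.02), retinoic acid genes 1 fall among 12 (ALDH1A3, about 1.93-fold), antigen presentation 1 fall among 12 (PSMB8, about 1.61-fold), TGF-beta targets 1 rise among 6 (PMEPA1, at least 1.72-fold), and placode genes 1 fall among 5 (DLX3, about 1.63-fold). Of the lists with under 5 measured members, endothelial and blood genes had 1 fall among 3 (TEK, -1.52), and mesoderm genes (3), endoderm genes (4) and HOX genes (3) had none. Each of these single calls was lost in at least 1 omission of an array.

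By position, rises made up 10.8% of the genes tested on chromosome 20, 10.1% on 16, 9.17% on 21, 8.42% on 22, 8.12% on 17 and 7.24% on 19, against 5.88% of all. The median change over all genes tested on these was 0.167, 0.168, 0.0376, 0.204, 0.0726 and 0.15 in that order. Falls made up 5.71% on chromosome 4, against 3.55% of all. Median promoter GC was 69.3% for rises and 63% for falls, against 65.3% for all genes tested with a window. The median genomic span was 36140 bases for genes that rose and 20810 for genes that fell, against 29110 for all genes tested. Of the rises, 60 were below background in LSB. Of the falls, 29 were below background in all 3 sorted groups, 39 in 2 and 62 in 1, and 271 in none. Another probe of the same gene went the other way for 16 of 162 rises and 1 of 94 falls with several probes.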

How the data were processed

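Total RNA was labelled and hybridised to Illumina HT-12 arrays, per the labels, whose processing notes name GenomeStudio without a version. The authors' deposited table holds a mean bead intensity per probe and array on the linear scale, without background subtraction or normalisation, with a detection p-value, per the file headers; its bead numbers served to describe the arrays, and 12 columns of bead standard errors were left aside. The authors also deposited a series matrix, an intensity with unstated steps, which served as an alternative.

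Values were background-corrected, quantile-normalised and turned into log2 units by neqc (offset 16) of limma 3.58.1 in R 4.3.3. Of 47322 probes, 30113 had 1 gene, 8 several and 17201 none, and 30074 matched a current symbol (GRCh38.p14). Probes with a detection p under 0.01 on at least 3 of 12 arrays were kept (18427), 1 per gene by highest mean, which gave 11280 genes, 2867 with several probes. All 12 arrays were fitted in 1 model of 4 groups (lmFit, eBayes; 8 residual degrees of freedom). The contrast was the mean of the 3 sorted group means minus LSB. A shared rise also needed detection on at least 2 of 3 arrays of each sorted group, a shared fall on at least 2 of 3 LSB arrays. Groups below background on all arrays were set at the detection floor, which gives bounds ("at least"). Where another sorted group of a gene that fell was detected on only 1 or 2 arrays, its undetected arrays kept their levels. Such a fold is no strict bound and is given as "about". Folds without these words can also rest in part on undetected arrays, where a group was detected on 1 or 2 of its 3 arrays. On simulated data with 200 changed genes the call was tested.

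The gene lists and members were chosen with earlier results of these data known, so counts of lists are descriptions with no test. The 41 lists are those named in the results. Genes named are the 12 largest shared rises and falls detected on all 12 arrays, up to 6 each below background in LSB or in all sorted groups, up to 5 members in each direction of every list with at least 2 shared calls, up to 6 each with no difference among sorted groups, all metallothionein and immediate early genes, and SOX10, NGFR, B3GAT1, PAX6, OTX2, SOX2, TFAP2A and VIM; uncharacterised symbols were skipped. PAMR1, RELN, FGF8, CDH1, CLDN6, CLDN10, DCX, TUBB3, SYT4, COL4A2, COL5A2, VCAN, HSPE1, PPP1R15A, PMEPA1, TEK, DLX3, ALDH1A3, PSMB8, ITGB5 and PALS1 were named after their values were seen. The array number limits the precision. Replicate numbers of the labels did not pair the arrays: of 18 same-number pairs, 2 had deviations correlated over 0.1 (range -0.0878 to 0.179).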

Additional observations from a re-analysis of the deposited data

Results flagged for a closer look

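The 3 sorted groups differed in the size of their change against LSB, by limma's moderated F at an adjusted p under 0.05, for 56 of the named genes. The values here are the distances, in log2 units, between the largest and the smallest of the 3 changes. For FEZF1, FGF8, PSMB8, PAX6, B3GAT1, NGFR, SOX10 and MT3 at least 1 sorted group was below background on all its arrays, so their distances are inexact. Among genes with a shared call, which moved the same way in every sorted group, the distance was at least 2 for CDH6 3.63, GFRA1 2.97, CNTN2 2.74, NEUROG1 2.63, MT1X 2.55, TNFRSF19 2.5, ISL1 2.45, L1TD1 2.44, FGF8 2.18, CLDN10 2.14, DCX 2.12 and ELAVL3 2.09. It was between 1 and 2 for CLIP3 1.97, SNAR-A1 1.97, ARHGAP15 1.97, FEZF1 1.96, GAP43 1.96, AXIN2 1.92, ITGB5 1.88, MEGF10 1.86, EDNRB 1.82, CDH11 1.76, LEF1 1.71, ZNF467 1.66, EGR1 1.55, TPM1 1.38, COL5A1 1.27, KRT19 1.2, RELN 1.15, IGFBP3 1.14, SNAP25 1.12, TUBB3 1.06, EPCAM 1.03, MT1F 1.03, KIF21B 1.01 and PSMB8 1.01. It was under 1 for PLXNB1 0.985, VCAN 0.938, IGF2R 0.922, ACTA2 0.905, COL4A2 0.885, TAGLN 0.851, S100A13 0.836, CTSV 0.829, GRN 0.81 and ARHGAP33 0.741. Among named genes with no shared call, the distance was SOX10 6.3, TFAP2A 4.37, PAX6 4.34, OTX2 3.53, B3GAT1 2.63, SOX2 2.53, NGFR 2.13, CCN1 1.67, IER3 1.57 and MT3 0.831.

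Of the 3637 detected probes that the annotation ties to no single gene, which the comparisons leave out, 136 had a shared rise and 137 a shared fall. Among the genes tested, 5.88% had a shared rise and 3.55% a shared fall. Their genes are not named here.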

How the results depend on the processing

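No named gene with a shared call reversed its direction in the settings where it was measured. Reversals were not counted for named genes without a shared call. Of 122 named genes with a shared call, 67 kept it wherever they were measured and 55 lost it under at least 1 setting, 49 of them with a 4-fold limit and 33 without background correction. In order, the counts are called on the mean higher and lower, then shared higher and lower; the values reported are 1057, 594, 663 and 401. Without background correction they were 410, 172, 294 and 140. With an offset of 50, those on the mean were 632 and 267, and the shared falls 212. With detection on all 12 arrays, those on the mean were 663 and 304, and the shared falls 224, over fewer genes. With no minimum fold, those on the mean were 2413 and 2089, and the shared falls 621. At 4-fold they were 163, 71, 122 and 68. With 2-fold in each group the shared counts were 425 and 210. Without the sox10-NC group the shared counts were 1229 and 636. Leaving out 1 array gave 956 to 1152, 511 to 616, 489 to 682 and 261 to 403, lowest without LSB array 2, and 2439 to 3318 genes that differ among sorted groups. Requiring no overlap of arrays, an alternative chosen after the data were seen, gave 626 and 389 shared calls. With the replicate number as a block, shared calls were 677 and 406 and genes that differ among sorted groups 3053, and no named gene lost its call. A slide block was not run, since the headers name no slides. Dim signal limits the falls: 271 of 401 had no sorted group below background, and for the others the fold is a bound or an approximate value.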
